A study of Mus musculus with 9 samples.

Results

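The genes described here are 10 enzymes and chaperones that modify, fold and cross-link collagen, and they were chosen by symbol from the 24453 genes in the expression table. They are 5 lysyl oxidases (Lox, Loxl1, Loxl2, Loxl3 and Loxl4), 2 lysyl hydroxylases (Plod1 and Plod2), 2 catalytic subunits of prolyl 4-hydroxylase (P4ha1 and P4ha3) and the collagen chaperone Serpinh1, also known as HSP47. A fibrillar collagen is hydroxylated on proline and lysine and folded into a triple helix in the endoplasmic reticulum, is trimmed after secretion, and is then joined to its neighbours by cross-links that lysyl oxidases start by oxidising lysine and hydroxylysine. Prolyl hydroxylation stabilises the helix, hydroxylation of lysine by Plod2 steers collagen towards stable pyridinoline cross-links, and in the scarred liver such cross-links are known to make the matrix stiffer and slower to resolve. The copper-dependent lysyl oxidases act outside the cell, whereas the hydroxylases and Serpinh1 act inside it.

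The data are RNA sequencing libraries of mouse liver cells in 3 groups of 3. Hepatic stellate cells (HSCs), the resting vitamin A-storing cells of the liver sinusoid, were taken from the healthy livers of wild-type C57BL/6J mice by density gradient and were not sorted. CCl4-fib were fibroblasts of Col1a2-GFP transgenic mice that received the liver toxin carbon tetrachloride (CCl4) into the peritoneum at 1 ml/kg, 2 times per week for 8 weeks. NASH-fib were fibroblasts of MC/COL mice, which are male, lack the melanocortin 4 receptor (MC4R-KO), carry the same Col1a2-GFP transgene and were fed Western diet (WD) from 8 weeks of age for 20 weeks, a model of non-alcoholic steatohepatitis. Both fibroblast groups were sorted as CD45- GFP+ cells, so the gate itself rests on the activity of a collagen promoter. Genotype, treatment and isolation method therefore all differ between HSCs and the sorted cells, genotype also differs between the fibrosis models, and the effects of each cannot be told apart. Each library pooled cells from 3 to 5 mice. No source used here says whether the pools were prepared as separate experiments, so the p-values measure the spread between these libraries, which may be technical in part.

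Libraries held between 3071070 and 5634273 reads on genes. The values below are reads scaled to a common library total, as deposited, and a gene with 3 reads had a value of 2.38 to 4.37. Reads of the disrupted gene Mc4r were 0 in all 6 libraries of mice with an intact gene and 4, 13 and 0 in NASH-fib replicates 1, 2 and 3, so the gene could not serve as a check of the labels. The summed value of 7 stellate markers ran from 45234 to 57249 in HSCs, from 5508 to 18370 in CCl4-fib and from 17783 to 31570 in NASH-fib. Of these, Lrat and Reln were at 7070 to 14894 and 7670 to 11068 in HSCs and at most 458 and 377 in any fibroblast library, whereas Des was higher in all CCl4-fib than in 2 of the 3 HSC libraries and Rgs5 overlapped between HSCs and NASH-fib. Ecm1 overlapped between HSCs (2060 to 7481) and CCl4-fib (985 to 4224). The summed value of 5 activated fibroblast markers ran from 4064 to 6649 in HSCs, from 23600 to 28979 in CCl4-fib and from 14144 to 23340 in NASH-fib. Within this sum Postn went the other way, at 2971 to 5577 in HSCs, 1435 to 2159 in CCl4-fib and 908 to 2353 in NASH-fib. Acta2, Col1a1, Timp1 and Tagln were higher in every fibroblast library than in any HSC library. The summed value of 7 hepatocyte markers ran from 23354 to 38939, from 2457 to 4011 and from 8866 to 29812 in the same order, that of 6 sinusoidal endothelial markers from 4543 to 11697, from 166 to 203 and from 868 to 2991, and that of 6 macrophage and leukocyte markers from 2749 to 11206, from 320 to 723 and from 2667 to 5388. The hepatocyte marker Apoa1 overlapped between HSCs (127 to 616) and CCl4-fib (149 to 225), as did the macrophage marker Cd68 (42.2 to 787 and 26.2 to 145). The sum of portal fibroblast and smooth muscle markers (6 genes) went the other way, from 121 to 265 in HSCs, from 5742 to 16432 in CCl4-fib and from 3405 to 15830 in NASH-fib, as did that of 4 cholangiocyte markers (30 to 70, 1373 to 3223 and 874 to 1116). Within these lists Epcam overlapped between CCl4-fib (7.94, 0.85 and 1.91 in replicates 1, 2 and 3) and HSCs (0, 2.91 and 0). Gli1 did so too (26.2, 14.5 and 0 against 2.34, 1.46 and 4.78). Of these markers, Cnn1 was at 0 in 2 HSC libraries, Epcam in 2, Thy1 in 1, and Clec4f and Gli1 in 1 CCl4-fib library each. These sums moved with most of the group differences below, and their part in them was not tested. In bulk libraries, fewer cells of a type and less RNA per cell cannot be told apart.

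HSC replicate 2 and NASH-fib replicate 1 were low in GC-rich genes relative to their groups. The median deviation from the group mean of GC-rich genes (at least 54.7% GC) minus that of GC-poor genes (at most 45.8% GC) was -0.80 and -1.24 on the log2 scale in these libraries, and between -0.23 and 0.83 in the other 7. The highest were 0.66 in HSC replicate 3 and 0.83 in NASH-fib replicate 2. Each is a deviation from a mean of 3 libraries, so it does not tell which library of a group is the odd one. A GC correction and a fit without this pair of libraries, both chosen after seeing the data, are given below for results whose call or size they change.

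All 10 genes were tested. Lox and P4ha3 passed the filter on low reads only through the fibroblast groups, where they are high, since 1 and 0 HSC libraries reached its minimum, so they are set aside from the counts against HSCs that are read beside all genes. Differences are log2 fold changes of value + 1 from limma, in which a gene was called at an adjusted p (Benjamini-Hochberg over 13651 genes) under 0.05 and a change of at least 1 in size. The added 1 shrinks the change of genes with low values, while a library at 0 weighs heavily in a mean of logs. For a single gene in groups of 3, the smallest p of an exact permutation test (two-sided) is 0.1.

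In CCl4-fib against HSCs, Lox, Loxl1, Plod2, P4ha3 and Serpinh1 rose and Loxl4 fell. Of the 8 genes other than Lox and P4ha3, 3 rose, where 16.2% of all tested genes did, and 1 fell, where 11.7% did. In NASH-fib against HSCs, Lox, Loxl1 and Plod2 rose and Loxl4 fell, which is 2 of the same 8 genes rising, against 8.23% of all tested genes, and 1 falling, against 4.3%. Between the fibrosis models, Loxl1 and Serpinh1 were lower in NASH-fib than in CCl4-fib, where 5.66% of all tested genes were lower, and 0 of the 10 genes were higher by limma, edgeR or DESeq2, against 4.97% of all tested genes by limma. At an unadjusted p under 0.05, 4 of the 10 were lower there (Loxl1, Loxl2, Plod1 and Serpinh1) and none was higher, where 28.9% of all tested genes passed that p in either direction. All 12 called differences had groups that did not overlap. In CCl4-fib, 3 of the 8 genes were above HSCs in every library and 1 below, where 27.8% and 20.9% of all tested genes were, and 27.8% were called in either direction. In NASH-fib, 2 of the 8 were above HSCs and 1 below, where 12.7% and 11.6% were, and 12.5% were called. Between the models 4 of the 10 were below in every NASH-fib library (Loxl1, Loxl2, Plod1 and Serpinh1) and 0 above, where 22% and 17.1% were, and 10.6% were called. The median log2 fold change over the 8 genes was 1.0 in CCl4-fib against HSCs, -0.15 in NASH-fib against HSCs and -1.14 in NASH-fib against CCl4-fib, beside medians of 0.18, -0.02 and -0.11 over all tested genes. The 3 comparisons share libraries pairwise, so their values are given side by side. Lox was the only one of the 10 genes called against HSCs in both models under every alternative tried. It passed the filter only through the fibroblast groups, where it is high, so this is given as a description and not as support. Library labels carry 1 of 4 prefixes whose meaning they do not give, and only 1 prefix holds a library of each group, too few for a test within it. Every called difference had the same sign within each prefix that holds both groups, and with the prefix as a term of the fit Lox, Loxl1 and Serpinh1 stayed called in CCl4-fib against HSCs, Lox in NASH-fib against HSCs and Loxl1 between the models.

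**Figure D1:**
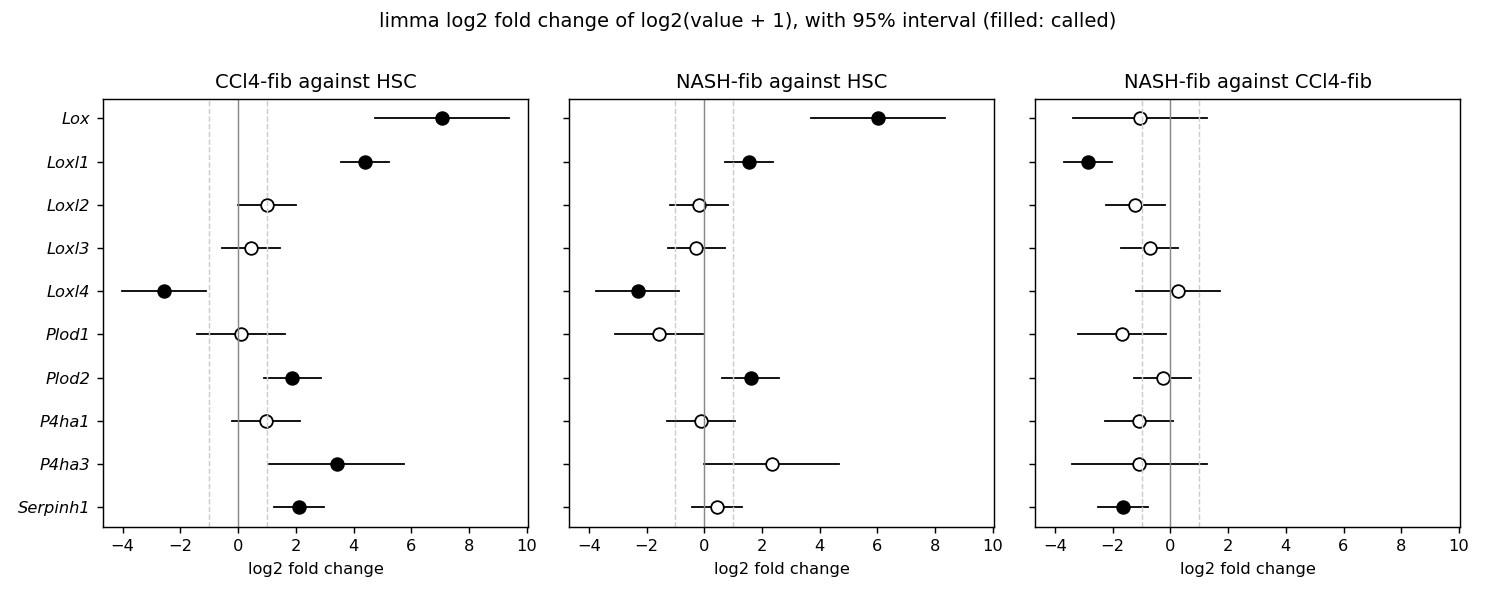
Log2 fold change of value + 1 (horizontal axis) of each of the 10 genes in 3 comparisons, with its 95% interval from limma. Filled points were called, dashed lines mark a change of 1 in size, and the P4ha3 points against HSCs rest on a group with 0 reads and are no measure of size. Lox lies farthest to the right in both comparisons against HSCs, and Loxl1 is lowest of the 10 genes in NASH-fib against CCl4-fib.

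Lox (NM_010728), the founding lysyl oxidase of collagen and elastin, lies on the - strand of chromosome 18 from 52516060 to 52529823 (mm10). Its values in HSC replicates 1, 2 and 3 were 0, 42.2 and 4.78, which are 0, 29 and 4 reads. CCl4-fib had values of 600.05, 913 and 1089, and NASH-fib of 605, 399 and 277. Every fibroblast library therefore lay above every HSC library, while the CCl4-fib and NASH-fib libraries overlapped by replicate 1 of each. Against HSCs, the log2 fold change was 7.06 in CCl4-fib (standard error 1.05, adjusted p = 0.000794 from limma) and 6.01 in NASH-fib (standard error 1.05, adjusted p = 0.00325 from limma). By edgeR the values were smaller, 5.67 and 4.86, and by DESeq2 5.66 and 4.84, and both called them. In limma, leaving out 1 library at a time moved its values between 5.74 and 8.45 and between 4.69 and 7.40 without ending a call. The difference of NASH-fib from CCl4-fib was -1.05 with a 95% interval from -3.37 to 1.27 (adjusted p = 0.532 from limma), so a difference of either sign is within the interval.

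Loxl1 (NM_010729), the family member best known for its part in elastic fibre assembly, lies on the - strand of chromosome 9 from 58287723 to 58313212. HSC replicates 1, 2 and 3 had values of 49.1, 74.3 and 40.65. CCl4-fib had 981, 1482 and 1025, and NASH-fib had 164, 197 and 117. The 3 groups were fully apart from each other, with NASH-fib in between. In CCl4-fib the log2 fold change against HSCs was 4.41 (standard error 0.38, adjusted p = 3.82e-05 from limma). In NASH-fib it was 1.54 (standard error 0.38, adjusted p = 0.0217 from limma), a call lost without HSC replicate 1 (adjusted p = 0.0737 from limma), HSC replicate 3 (0.0726) or NASH-fib replicate 2 (0.0832), and in the fit of these 2 groups only (0.0870). NASH-fib was lower than CCl4-fib, with a log2 difference of -2.87 (standard error 0.38, adjusted p = 0.00567 from limma), which stayed called in all 9 fits that left out 1 library. Loxl1 has 61.0% GC, the highest share of the 10 genes, and with a GC correction this last difference was -1.62 (adjusted p = 0.0587 from limma), whereas without HSC replicate 2 and NASH-fib replicate 1 it was -2.90 (adjusted p = 0.00289 from limma).

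Loxl4 (NM_053083), on the - strand of chromosome 19 from 42592279 to 42612806, went in the opposite direction to Lox. This member belongs with Loxl2 and Loxl3 to the branch of the family that carries scavenger receptor domains. Its values were 173, 53.9 and 95.6 in HSC replicates 1, 2 and 3. CCl4-fib had 19.1, 5.95 and 30.5, and NASH-fib 17.7, 23.2 and 15.7. All 6 fibroblast libraries were below the lowest HSC library, and the models overlapped each other. Against HSCs, the log2 fold change was -2.57 in CCl4-fib (standard error 0.65, adjusted p = 0.0148 from limma) and -2.31 in NASH-fib (standard error 0.65, adjusted p = 0.0426 from limma). The first call was lost without HSC replicate 1 (adjusted p = 0.0660 from limma) or CCl4-fib replicate 2 (0.0618). The second was lost in 6 of 9 fits that left out 1 library, namely HSC replicate 1 (0.172), HSC replicate 3 (0.10), the first CCl4-fib replicate (0.0639) or NASH-fib replicates 1 (0.0692), 2 (0.0786) or 3 (0.129), and also with no filter on low values (0.0604), with the replicate number as a block (0.0571) and with a GC correction (0.0586). The difference between the models, 0.26 (adjusted p = 0.817 from limma), was 1.42 with the GC correction (adjusted p = 0.209 from limma) and not called.

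The Loxl4 promoter, the only one of the lysyl oxidase family in the RefSeq promoter table (GRCm38.p6, the assembly of mm10), is shown because Loxl4 was the 1 gene of the 10 that fell. The window runs from 250 bases before to 50 bases after the start, at chr19:42612757-42613056 on the - strand, has 75% GC and holds 32 CG pairs.

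Loxl4: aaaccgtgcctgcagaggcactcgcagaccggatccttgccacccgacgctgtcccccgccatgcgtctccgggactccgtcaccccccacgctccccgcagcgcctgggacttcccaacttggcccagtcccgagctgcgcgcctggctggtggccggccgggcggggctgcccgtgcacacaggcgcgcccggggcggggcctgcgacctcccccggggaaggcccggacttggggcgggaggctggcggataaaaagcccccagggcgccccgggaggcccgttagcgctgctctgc

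Its letters hold none of 4 short motifs that were searched on both strands. The motifs were ACGTG, the core of the hypoxia response element, found in 19.6% of 32851 promoters of this length, GGAATG, the TEAD motif (14.7%), GTCTAG, the core of the SMAD box (8.37%), and TATAAA, the TATA box (13.6%). That says only that these letters are not in this window.

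Loxl2 and Loxl3 were called in none of the 3 comparisons. Loxl2 (NM_033325), at chromosome 14 from 69609476 to 69695834 on the + strand, is an enzyme that has been studied as a target in fibrosis. It had values of 274, 416 and 164 in HSC replicates 1, 2 and 3, of 367, 639 and 661 in CCl4-fib and of 367, 186 and 181 in NASH-fib. CCl4-fib overlapped the HSCs, and its lowest library, at 367.49, was only just above the highest NASH-fib library, at 367.03. The log2 fold change was 1.02 in CCl4-fib against HSCs (95% interval 0.01 to 2.02, adjusted p = 0.123 from limma), -0.20 in NASH-fib against HSCs (interval -1.21 to 0.81) and -1.21 in NASH-fib against CCl4-fib (interval -2.22 to -0.21, adjusted p = 0.113 from limma). Without HSC replicate 2 and NASH-fib replicate 1 the first and the last were called, with 1.34 (adjusted p = 0.0154 from limma) and -1.55 (adjusted p = 0.0224 from limma). With the GC correction both were smaller and not called, with 0.40 (adjusted p = 0.666 from limma) and -0.63 (adjusted p = 0.573 from limma). An antisense gene, Gm27177, shares 5.6% of the exonic bases of Loxl2, and reads of both strands were counted.

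Loxl3 (NM_013586), at chromosome 6 from 83034224 to 83052564 on the + strand, had values of 238, 134 and 246 in HSC replicates 1, 2 and 3. CCl4-fib had 360.35, 254 and 219, and NASH-fib 101, 274 and 160.2. The 3 groups overlapped. On the log2 scale the change was 0.45 in CCl4-fib (interval -0.54 to 1.44) and -0.28 in NASH-fib (interval -1.27 to 0.72) against HSCs, and -0.72 between the models (interval -1.72 to 0.27). None was called with the GC correction (-0.16 in CCl4-fib, -0.15 between the models) or without the pair of libraries (0.17 and -0.37). Htra2, on the opposite strand, shares 11.6% of the exonic bases of Loxl3, so part of its reads can come from that gene.

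Per kb of exon, the 5 lysyl oxidases together had a value of 146 ± 19.3 in HSCs, 707 ± 120.0 in CCl4-fib and 230.0 ± 54.0 in NASH-fib (mean ± SD of the 3 libraries, n = 3). The makeup of that sum differed between the groups. Lox and Loxl1 held 2.13% ± 3.03 and 11.2% ± 2.79 of it in HSCs (SD, n = 3), where Loxl2 and Loxl3 held 37.1% ± 13.6 and 36% ± 14.0. In CCl4-fib, Loxl1 held 49.3% ± 5.88 and Lox 25% ± 5.29, the largest and second largest shares in all 3 libraries. In NASH-fib, Lox held the largest share, 37.2% ± 7.08, in all 3 libraries, and Loxl1 held 20.8% ± 2.80. Loxl4 held 6.4% to 20.1% of the sum in HSC libraries and 0.1% to 1.7% in fibroblast libraries.

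**Figure D2:**
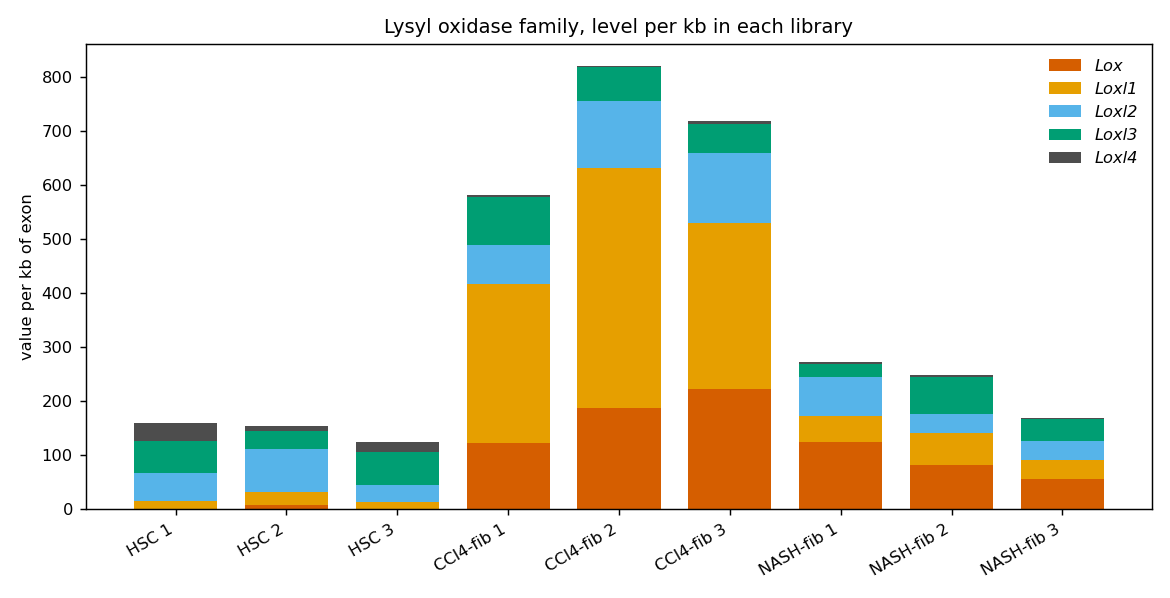
Value per kb of exon (vertical axis) of the 5 lysyl oxidases, stacked, in each of the 9 libraries. CCl4-fib bars reach 581.5 to 819.6 and are mostly Loxl1 and Lox, NASH-fib bars reach 169.5 to 272.4 with Lox as the largest band, and HSC bars reach 123.6 to 158.8 with little Lox.

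Of the lysyl hydroxylases, Plod2 rose in both models and Plod1 was called in none of the 3 comparisons. Plod2 (NM_001142916), which hydroxylates the telopeptide lysines that give stable cross-links, lies on the + strand of chromosome 9 from 92542223 to 92608427. Its values in HSC replicates 1, 2 and 3 were 157, 282.5 and 148. CCl4-fib had 506, 640 and 1023, and NASH-fib 983, 436 and 437. Every fibroblast library was above every HSC library, and the models overlapped. The log2 fold change against HSCs was 1.88 in CCl4-fib (standard error 0.45, adjusted p = 0.0108 from limma) and stayed called in all 9 fits that left out 1 library. It was 1.61 in NASH-fib (standard error 0.45, adjusted p = 0.0401 from limma), a call that was lost without any 1 of 7 libraries, with adjusted p-values from limma of 0.135 and 0.118 without HSC replicates 1 and 3, of 0.0530 and 0.0674 without CCl4-fib replicates 1 and 2 and of 0.0834, 0.0557 and 0.0598 without NASH-fib replicates 1, 2 and 3. It was also lost with edgeR (adjusted p = 0.0514), in the limma fit of these 2 groups only (0.0910) and with the replicate number as a block (0.0888). The difference between the models was -0.27 (interval -1.26 to 0.72), and was -0.75 with a GC correction and -0.66 without the 2 libraries low in GC-rich genes, called in neither. Gm38391, on the opposite strand, shares 6.4% of the exonic bases of Plod2, and reads of both strands were counted. Plod2 has 42.2% GC, the lowest share of the 10 genes, and its highest value in HSCs and in NASH-fib came from the 2 libraries low in GC-rich genes, while the difference of NASH-fib from HSCs was 1.53 with a GC correction (adjusted p = 0.00896 from limma) and 1.51 without those libraries (adjusted p = 0.0159 from limma).

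Plod1 (NM_011122), which hydroxylates lysines of the helix, lies on the - strand of chromosome 4 from 147909753 to 147936776 and had values of 430.2, 229 and 791 in HSC replicates 1, 2 and 3. CCl4-fib had 476, 491 and 419, and NASH-fib had 42.1, 284 and 243. All NASH-fib libraries were below all CCl4-fib libraries, and both groups overlapped the HSCs or lay within their range. NASH-fib replicate 1, with 42.1, was the lowest of the 9 libraries. The log2 fold change of NASH-fib was -1.68 against CCl4-fib (interval -3.20 to -0.16, adjusted p = 0.139 from limma) and -1.57 against HSCs (interval -3.09 to -0.05, adjusted p = 0.204 from limma). Against HSCs it was -1.56 with a GC correction (adjusted p = 0.0279 from limma) and -1.15 without the 2 libraries low in GC-rich genes (adjusted p = 0.0455 from limma), and was called in both. Without NASH-fib replicate 1 alone, the values were -0.81 between the models (adjusted p = 0.348 from limma) and -0.70 against HSCs (adjusted p = 0.367 from limma). Between the models it was -0.79 with the GC correction (adjusted p = 0.252 from limma) and -0.81 without the pair of libraries (adjusted p = 0.108 from limma). That of CCl4-fib against HSCs was 0.11 (interval -1.41 to 1.63) and turned negative under several alternatives, among them TMM scaling (-0.01), the GC correction (-0.77) and the fit without the pair (-0.34). The ratio of Plod2 to Plod1 per kb of exon was 0.319, 1.08 and 0.164 in HSC replicates 1, 2 and 3. CCl4-fib had ratios of 0.930, 1.14 and 2.14, and NASH-fib of 20.4, 1.35 and 1.58. The value of 20.4 came from NASH-fib replicate 1, the library lowest in GC-rich genes.

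The prolyl 4-hydroxylase subunits differed widely in level. P4ha1 (NM_001316371), the common catalytic subunit, lies on the + strand of chromosome 10 from 59323296 to 59373304 and had values of 302, 813 and 229.5 in HSC replicates 1, 2 and 3. CCl4-fib had 691, 1209 and 513, and NASH-fib had 549, 339 and 246. The groups overlapped in every comparison. The log2 fold change was 0.97 in CCl4-fib against HSCs (interval -0.20 to 2.15, adjusted p = 0.197 from limma), -0.10 in NASH-fib against HSCs (interval -1.28 to 1.08) and -1.07 between the models (interval -2.25 to 0.10, adjusted p = 0.210 from limma). Without HSC replicate 2, whose value of 813 was the highest of its group, the first was 1.52 (adjusted p = 0.0480 from limma) and was called. Without NASH-fib replicate 1 as well, it was 1.52 (adjusted p = 0.0109 from limma) and the last was -1.38 (adjusted p = 0.0379 from limma), both called.

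P4ha3 (NM_177161), a less common catalytic isoform, lies on the + strand of chromosome 7 from 100285520 to 100319699 and was the lowest of the 10 genes in HSCs. It had 0 reads in all 3 HSC libraries, 16, 4 and 20 reads in CCl4-fib replicates 1, 2 and 3 and 11, 8 and 0 reads in NASH-fib, which are values of 12.7, 3.40 and 19.1 and of 14.95, 7.13 and 0. CCl4-fib was above HSCs in all libraries, whereas NASH-fib replicate 3 had no read either. Against the mean value of 3 reads in the HSC libraries, 3.82, the mean of CCl4-fib was at least 3.07-fold higher. This limit was 2.11-fold without CCl4-fib replicate 3, and CCl4-fib replicate 2 alone, at 3.40, was under 3.82. No such limit holds for NASH-fib, whose mean value of 7.36 was 3.56 without replicate 1, under that of 3 reads. This limit covers counting error only, since amplified reads are not independent molecules. The limma test called CCl4-fib against HSCs (adjusted p = 0.0356), a call lost with a pseudocount of 8 (adjusted p = 0.0614 from limma), with a GC correction (0.121), with the replicate number as a block (0.0585), without any 1 of the HSC replicates 1, 2 and 3 (0.0838, 0.0787 and 0.0629) and without CCl4-fib replicate 1 (0.104) or 3 (0.115). NASH-fib against HSCs was not called (adjusted p = 0.225 from limma), except with DESeq2 (adjusted p = 0.0489) and without NASH-fib replicate 3 (adjusted p = 0.0342 from limma).

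Serpinh1 (NM_009825), which binds the procollagen triple helix in the endoplasmic reticulum and is specific to collagen, lies on the - strand of chromosome 7 from 99345375 to 99353239. Its values were 1093, 749.9 and 774 in HSC replicates 1, 2 and 3. CCl4-fib had 3765, 5692 and 2340.3, and NASH-fib had 943, 1559 and 1097. The CCl4-fib libraries lay above all others, and NASH-fib overlapped the HSCs. The log2 fold change against HSCs was 2.10 in CCl4-fib (standard error 0.39, adjusted p = 0.00275 from limma) and stayed called under every alternative tried, with values from 1.15 (the GC correction, adjusted p = 0.0444 from limma) to 2.43. In NASH-fib it was 0.45 (interval -0.41 to 1.31, adjusted p = 0.605 from limma). NASH-fib was lower than CCl4-fib, with a log2 difference of -1.65 (standard error 0.39, adjusted p = 0.0269 from limma). That call was lost without CCl4-fib replicate 1 (adjusted p = 0.0848 from limma) or 2 (0.126), without NASH-fib replicate 1 (0.0660) or 3 (0.0845), and with a GC correction, under which the difference was -0.66 (adjusted p = 0.303 from limma). It was kept without the 2 libraries low in GC-rich genes, with -1.50 (adjusted p = 0.0279 from limma). Coverage of Serpinh1 reached 2.8 reads per exonic base in 1 library. The authors kept no more than 3 reads at a position, which can flatten high values. Other genes, such as Ppib at 4.26, exceeded 3 reads per exonic base, so 3 is no ceiling on this measure. Flattening of Serpinh1 was not tested.

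Promoters of the intracellular members in the RefSeq table are shown for Serpinh1, which rose in CCl4-fib against HSCs, and for P4ha1, which was called in none of the 3 comparisons. Capitals mark matches to the motifs named for Loxl4. The Serpinh1 window, chr7:99353190-99353489 on the - strand, holds ACGTG on its reverse strand, 171 bases before the start, and GTCTAG, 127 bases before it. The P4ha1 window, chr10:59323046-59323345 on the + strand, holds ACGTG on its reverse strand, 16 bases before the start, and TATAAA beginning 39 bases after it.

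Serpinh1: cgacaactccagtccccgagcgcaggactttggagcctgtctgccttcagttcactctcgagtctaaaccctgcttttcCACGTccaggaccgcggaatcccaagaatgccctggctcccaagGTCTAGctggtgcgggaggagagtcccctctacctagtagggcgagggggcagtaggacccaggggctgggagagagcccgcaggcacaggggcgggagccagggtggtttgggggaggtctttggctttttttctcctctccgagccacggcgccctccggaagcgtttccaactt

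P4ha1: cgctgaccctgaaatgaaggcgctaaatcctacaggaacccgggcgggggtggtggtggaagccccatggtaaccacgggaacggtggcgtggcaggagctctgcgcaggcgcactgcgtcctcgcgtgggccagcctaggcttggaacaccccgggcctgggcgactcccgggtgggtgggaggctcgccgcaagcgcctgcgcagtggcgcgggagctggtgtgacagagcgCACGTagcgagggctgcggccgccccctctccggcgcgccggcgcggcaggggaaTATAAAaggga

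The table also holds promoters of Plod1, with GTCTAG at 2 places and TATAAA at 1 place, all on the reverse strand, and of P4ha3, with none of the 4 motifs. A match is a run of letters, not a binding site, and ACGTG stood in the windows of 2 of the 5 genes against 19.6% of all promoters. No promoter was given for Lox, Loxl1, Loxl2, Loxl3 and Plod2.

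**Figure D3:**
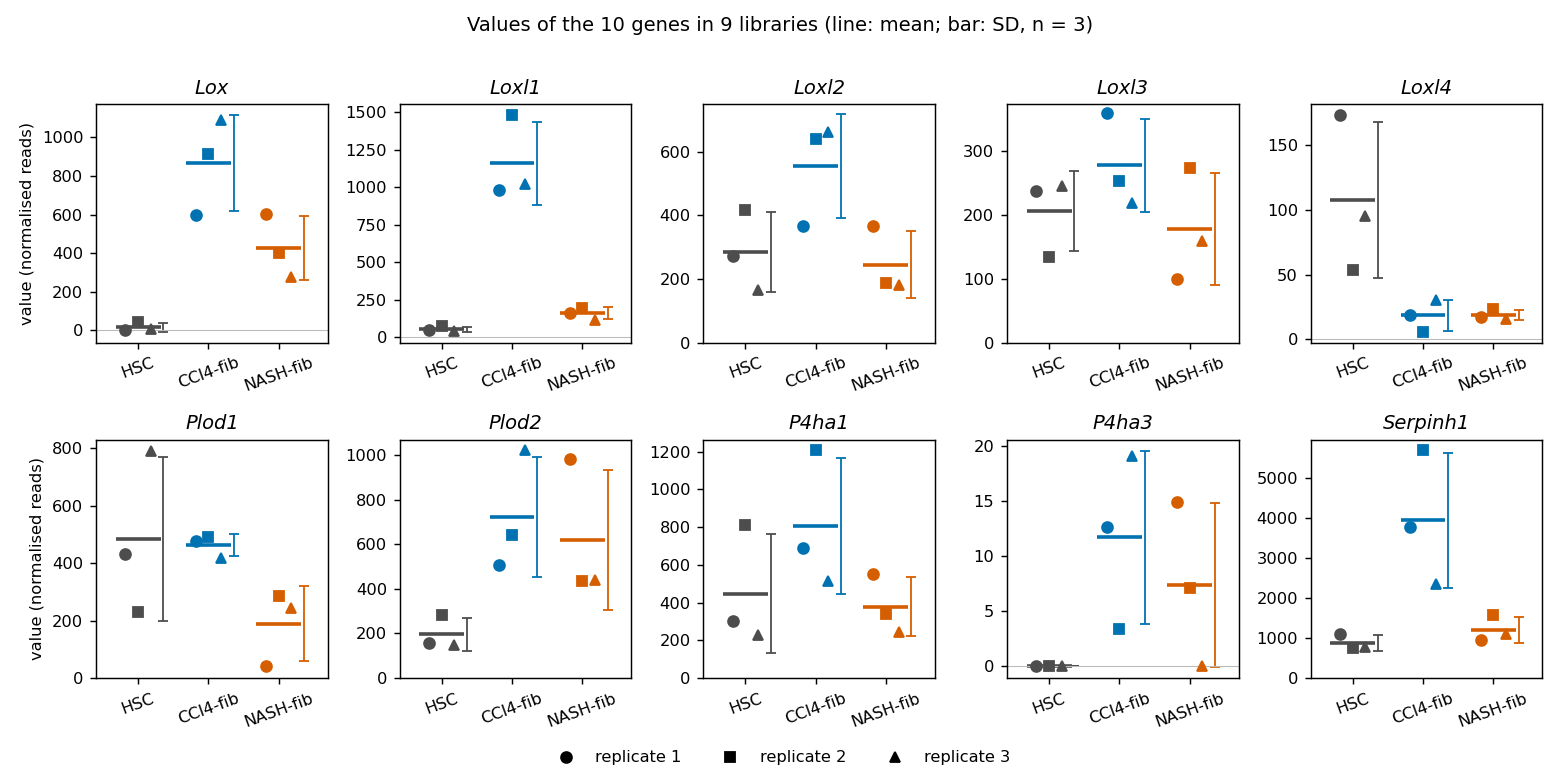
Values (normalised reads, vertical axis, own scale in each panel) of the 10 genes in the 9 libraries, with the mean as a line and the SD as a bar beside it (n = 3) and the replicates as different symbols. Lox, Loxl1 and Plod2 are above HSCs in all 6 fibroblast libraries, Loxl4 is below, and Loxl1 and Serpinh1 are highest in the 3 CCl4-fib libraries.

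Levels can be compared between genes only per length. Serpinh1 had the highest value per kb of exon in all 3 groups, 364.5 ± 80.1 in HSCs, 1643 ± 703 in CCl4-fib and 501 ± 134 in NASH-fib (SD, n = 3), and no library of the gene next in order reached its lowest. In HSCs the order continued with Plod1 (149.6 ± 88.3), P4ha1 (111 ± 79.0), Loxl2 (55.1 ± 24.5), Plod2 (53.1 ± 20.4) and Loxl3 (51.1 ± 15.6), neighbours that overlapped, and then, apart from them, Loxl4 (19.9 ± 11.2) and Loxl1 (16.4 ± 5.25), followed by Lox (3.21 ± 4.73) and P4ha3 at 0. In CCl4-fib, Loxl1 stood second (349 ± 83.3), ahead of P4ha1 (199.8 ± 89.7), Plod2 (195.9 ± 72.8), Lox (177 ± 50.6) and Plod1 (143 ± 11.8), each overlapping the next. Loxl2 (108 ± 31.7) and Loxl3 (68.9 ± 18.2) came after them, and P4ha3 (4.999 ± 3.361) and Loxl4 (3.42 ± 2.27) were last. In NASH-fib, Plod2 stood second (168 ± 85.4), then P4ha1 (93.9 ± 38.6), Lox (87.4 ± 33.9), Plod1 (58.7 ± 40.1), Loxl1 (47.9 ± 12.1), Loxl2 (47.4 ± 20.5) and Loxl3 (44.2 ± 21.9), all overlapping their neighbours, and Loxl4 (3.48 ± 0.712) and P4ha3 (3.14 ± 3.19) closed the order. Lox thus moved from the ninth place in HSCs to the fifth in CCl4-fib and the fourth in NASH-fib, and Loxl4 from the seventh to the tenth and the ninth.

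The rest of the collagen maturation pathway was described by 41 further genes, of which 40 were tested (Tll2 was not). In CCl4-fib against HSCs, 19 rose and 1 fell, beside 16.2% and 11.7% of all tested genes. In NASH-fib against HSCs, 6 rose and 3 fell (8.23% and 4.3% of all tested genes), and in NASH-fib against CCl4-fib, 1 was higher and 13 were lower (4.97% and 5.66%). The same shares stand beside the counts by role below. P3h1, Creb3l1, Fmod, Adamts14, Tll1 and Mia2 reached the minimum of the filter in fewer than 3 HSC libraries and passed it with the help of fibroblast libraries. Of these, P3h1, Creb3l1, Fmod and Tll1 rose and Mia2 fell in CCl4-fib against HSCs, and Fmod rose in NASH-fib. Such genes were admitted partly by groups where they are high, so the counts are not read as an excess over the shares of all tested genes. The median log2 fold changes of the 40 tested genes were 1.46 in CCl4-fib against HSCs, 0.29 in NASH-fib against HSCs and -1.17 in NASH-fib against CCl4-fib. The count between the models depended on single libraries, with 5, 4 and 6 called when CCl4-fib replicates 1, 2 and 3 were left out in turn, 7 and 4 when NASH-fib replicates 1 and 3 were, and 9 when HSC replicate 1 was. Calls over all genes fell in the same fits, from 1451 to 532, 212 and 695 without CCl4-fib replicates 1, 2 and 3, to 684 and 269 without NASH-fib replicates 1 and 3 and to 1132 without HSC replicate 1. The median of these 40 genes stayed between -1.27 and -1.16 without the CCl4-fib replicates and was -0.81 and -1.24 without NASH-fib replicates 1 and 3. Fkbp10, Bmp1, Fn1 and Col5a1 were the 4 of these 14 genes that stayed called whichever library was left out. Against HSCs, 6 of the 9 called in NASH-fib (Fmod, Pxdn, Col1a1, Col1a2, Col5a2 and Eln) did so. So did 12 of the 20 called in CCl4-fib (P3h1, P3h4, Fkbp10, Mia2, Bmp1, Fn1, Fmod, Col1a1, Col1a2, Col3a1, Col5a2 and Eln). With the GC correction, P3h1, Adamts2, Col1a1, Col3a1 and Col5a1 lost their calls between the models. Against HSCs it ended the calls of Sec24d, Adamts2 and Col5a1 in CCl4-fib and of Col5a1 in NASH-fib. Between the models, P4hb, Ppib, Adamts2, Col1a1, Col1a2 and Col3a1 were not called with TMM scaling or with edgeR, and Adamts14 was not called with edgeR.

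Among the substrates that these enzymes act on, all 6 genes rose in CCl4-fib against HSCs. They were Eln, which encodes elastin (log2 fold change 4.80), the type V collagen genes Col5a2 (4.02) and Col5a1 (1.14), the type I collagen genes Col1a1 (3.99) and Col1a2 (3.36), and Col3a1 of type III collagen (2.59). In NASH-fib against HSCs, 4 rose, Eln by 3.49, Col1a1 by 2.75, Col5a2 by 2.20 and Col1a2 by 1.98, Col5a1 fell by 1.32, and Col3a1 had a log2 fold change of 0.99 and was not called. The call of Col5a1 against HSCs was kept in 14 of 22 alternatives in each model and lost with the GC correction. Col1a1, Col1a2, Col3a1, Col5a1 and Col5a2 were lower in NASH-fib than in CCl4-fib, with log2 differences from -1.25 to -2.45, and Eln, at -1.31 (adjusted p = 0.112 from limma), was not called. Both fibroblast groups were sorted by a Col1a2 promoter, so a high level of Col1a2 against HSCs is tied to the gate. Eln and Col1a1 are also among the marker genes summed above.

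Of 11 genes for hydroxylation and glycosylation, P3h1, P3h4, Ppib and P4hb rose in CCl4-fib against HSCs, and 0 were called in NASH-fib against HSCs by limma, with 1 at an unadjusted p under 0.05 (P3h4, log2 fold change 1.76), which edgeR and DESeq2 also had as their 1 call. P3h1 and the cyclophilin Ppib belong to the prolyl 3-hydroxylation complex, and P4hb is the partner subunit of P4ha1 and P4ha3. P3h1, Ppib and P4hb were lower in NASH-fib than in CCl4-fib, with log2 differences of -2.19, -2.54 and -2.02. Of 7 genes for folding and export, Fkbp10 (log2 fold change 4.15), a foldase needed for telopeptide lysine hydroxylation, Creb3l1 (3.72), a transcription factor of the secretory pathway, and Sec24d (1.05), a coat protein of export vesicles, rose in CCl4-fib against HSCs. The Sec24d call was kept in 10 of 22 alternatives and lost with TMM scaling, edgeR, DESeq2 and the GC correction. That of Creb3l1 was kept in 16 of 22 and lost with edgeR. Fkbp10 was lower in NASH-fib than in CCl4-fib (-3.45, adjusted p = 0.00863 from limma). Mia2 was placed with the export genes by its symbol. Its reads were counted over 1622 exonic bases, and whether the transcript counted serves collagen export was not tested. It had no read in any CCl4-fib library, and the summed hepatocyte markers were also lowest in that group. HSCs were therefore at least 8.50-fold and NASH-fib at least 8.48-fold higher for Mia2. These limits were 3.54-fold without HSC replicate 3 and 5.12-fold without NASH-fib replicate 1.

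Of 7 tested genes for propeptide removal, Bmp1 (log2 fold change 3.77), the C-proteinase that also activates pro-lysyl oxidase, Pcolce (2.46), its enhancer, and Adamts2 (1.40), the N-proteinase, rose in CCl4-fib against HSCs. So did Tll1, at the floor in HSCs, by at least 3.69-fold, a call kept in 12 of 22 alternatives and lost with edgeR. In NASH-fib against HSCs the enhancer Pcolce2 rose (3.23, adjusted p = 0.0145 from limma). Adamts14 (-4.59), Bmp1 (-3.04) and Adamts2 (-1.35) were lower in NASH-fib than in CCl4-fib. Of 7 genes for partners of lysyl oxidase and copper supply, Fmod, whose product fibromodulin binds collagen and lysyl oxidase, rose in both models against HSCs (4.68 in CCl4-fib and 5.54 in NASH-fib). Fn1, which encodes fibronectin, rose in CCl4-fib (2.47) and was lower in NASH-fib than in CCl4-fib (-2.37, adjusted p = 0.00562 from limma). Postn, which encodes periostin and is also among the summed markers, fell by 1.71 on the log2 scale in NASH-fib against HSCs. That call was kept in 15 of 22 alternatives and lost with edgeR. Of the 2 other cross-linking enzymes Pxdn, which joins type IV collagen, fell by 1.51 in NASH-fib against HSCs, while Tgm2 was called in no comparison. In CCl4-fib, Postn (-1.24, adjusted p = 0.0511 from limma) and Pxdn (-0.905, adjusted p = 0.05875 from limma) were also below HSCs in all libraries but not called. Neither was called between the models (-0.47 and -0.605). The copper genes Atp7a, Atox1 and Slc31a1 were called in none. Ppib, Atox1, Col1a2, Col3a1 and Pcolce reached 4.26, 3.75, 3.59, 3.41 and 3.25 reads per exonic base in 1 library, more than Serpinh1. Whether the limit on reads per position flattened their high values was not tested.

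**Figure D4:**
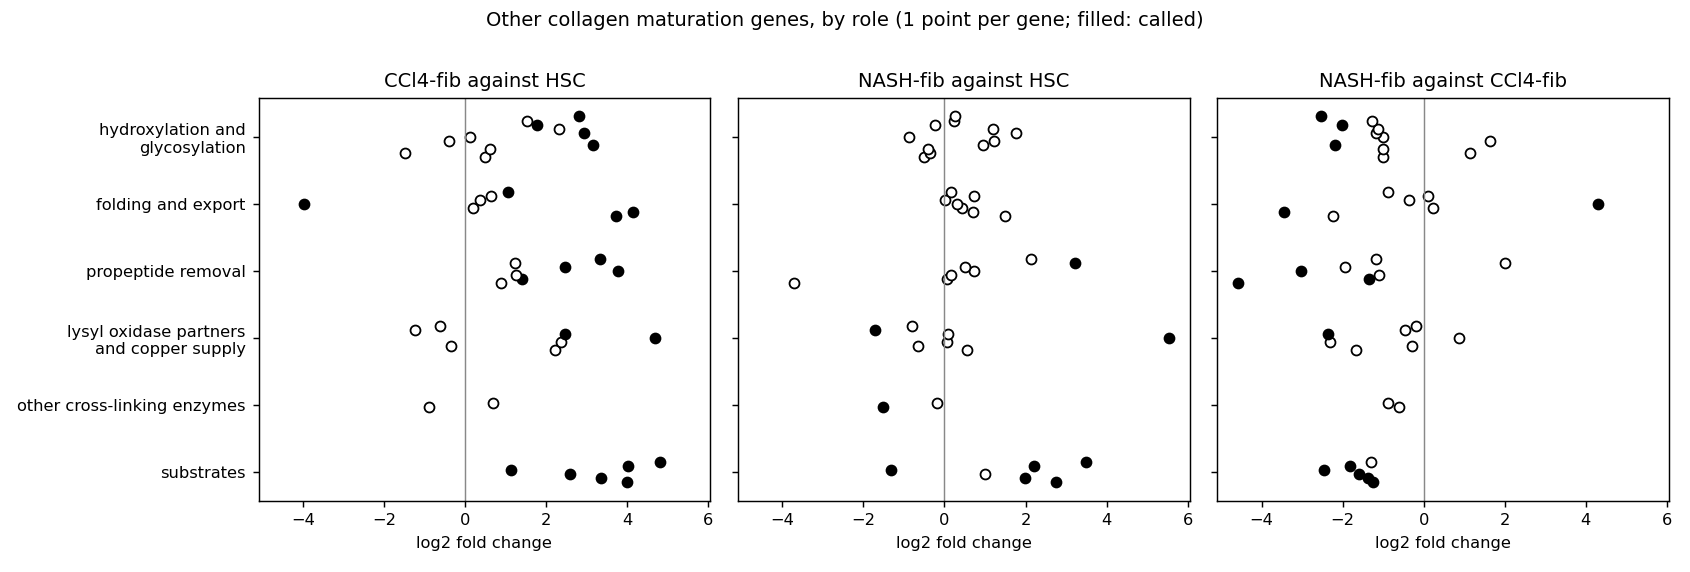
Log2 fold change of value + 1 (horizontal axis) of the 40 other collagen maturation genes tested, 1 point per gene in rows by role, for 3 comparisons. Filled points were called by limma, and points against a group with no reads (Mia2, Tll1) are no measure of size. All 6 substrates are filled and to the right of 0 in CCl4-fib against HSCs, and 13 of the 14 filled points in NASH-fib against CCl4-fib are to the left.

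The deviations of the 10 genes in the 2 libraries low in GC-rich genes were as follows. In HSC replicate 2, Plod2 (0.59), Lox (2.78) and P4ha1 (1.08), the genes with the lowest GC content, were above their group mean on the log2 scale, while Loxl3 (-0.57), Plod1 (-0.90), Serpinh1 (-0.20) and Loxl4 (-0.83) were below it. In NASH-fib replicate 1 the same 3 genes were above (0.78, 0.57 and 0.62) and Loxl3 (-0.70), Plod1 (-1.74), Serpinh1 (-0.31) and Loxl4 (-0.07) below. Of the other genes with a GC content above that of P4ha1, Loxl1, which has the highest share, was above its group mean in both libraries (0.48 and 0.08). So was Loxl2 (0.65 and 0.66). Loxl2 and Loxl3, at 53.5% and 53.4% GC, are under the limit used for GC-rich genes. P4ha3 was at 0 and 1.66, but it had 0 reads in every HSC library and only 11 in NASH-fib replicate 1. The part of base composition in the differences between groups was measured only through the GC correction and the fit without this pair of libraries. With the correction, 3 of the 10 genes rose and 1 fell (Plod1 in place of Loxl4) in NASH-fib against HSCs, where 13.9% of all genes were called, 5 were called in CCl4-fib against HSCs (28.4% of all genes) and 0 by limma between the models (9.65%), with 3 of the 10 at an unadjusted p under 0.05 there (27.1%). Without the pair, 5, 8 and 4 of the 10 were called, beside 14.6%, 31.8% and 12.6% of all genes, which were 12.5%, 27.8% and 10.6% with all libraries. The counts against HSCs in both of these fits include Lox and P4ha3, which passed the filter only through the fibroblast groups. Those counts are therefore not read as an excess over the shares of all genes.

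**Figure D5:**
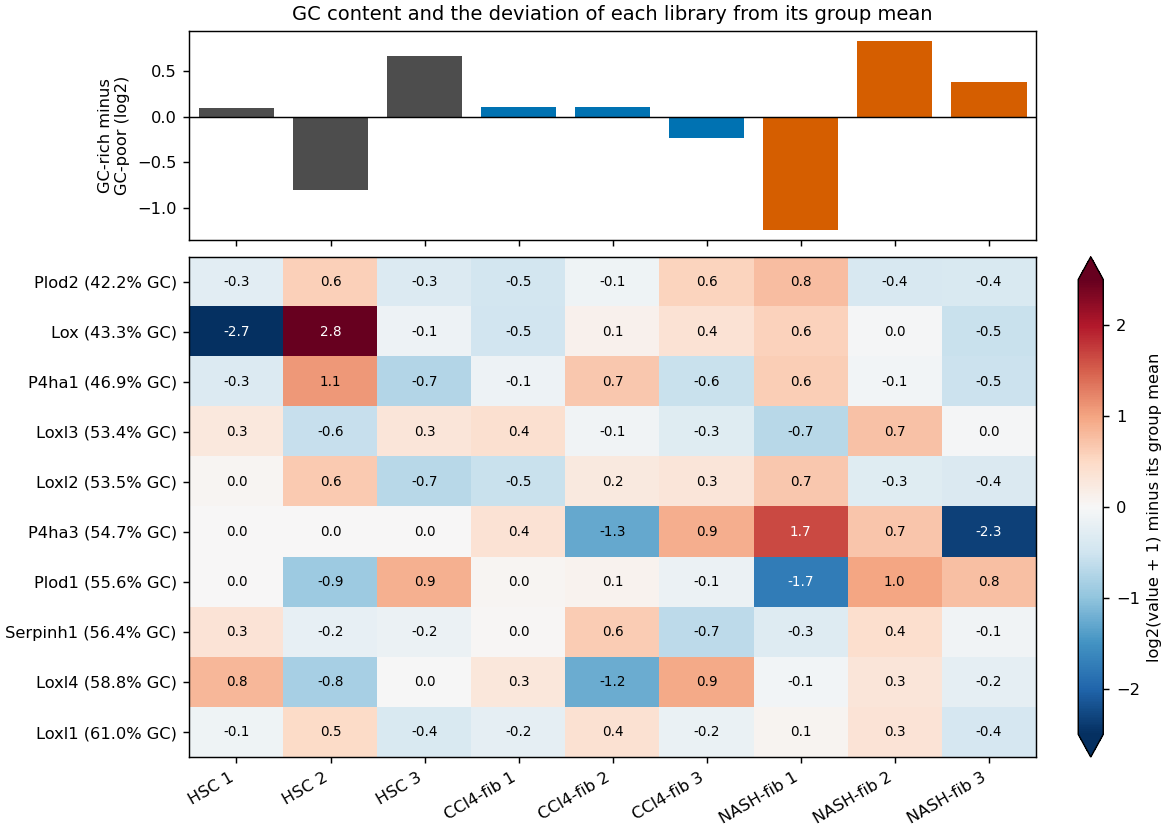
Upper panel: median log2 deviation from the group mean of GC-rich minus GC-poor genes in each library (bars). Lower panel: deviation of log2(value + 1) of each of the 10 genes from its group mean, genes ordered by exonic GC content from 42.2% (top) to 61.0% (bottom). The bars of HSC replicate 2 (-0.80) and NASH-fib replicate 1 (-1.24) are the lowest, and in both libraries the 3 genes at the top are above their group mean.

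For 4 of the genes, the tested genes with the most similar pattern were sought by the Pearson correlation of log2(value + 1) over the 9 libraries, given as a description, since the libraries share their group means, depth and base composition. The highest for Lox were Ppp2r2b (r = 0.988), Adcy7 (0.984) and Cetn4 (0.974). For Plod2 they were Tob1 (0.975), Bhlhe41 (0.968) and Steap2 (0.964). The P4ha3 pattern was closest to Nudt11 (0.969), Rassf9 (0.945) and Mlana (0.943), of which Nudt11 and Mlana also had a mean value of 0 in HSCs and Rassf9 one of 5.56. For Serpinh1 they were Sytl1 (0.980), the cytoskeletal actin gene Actg1 (0.978) and P4htm (0.977), whose mean values were likewise highest in CCl4-fib. Among the 10 genes themselves the most similar pairs were Lox with Plod2 (r = 0.92) and Loxl1 with Serpinh1 (0.92), and the most opposed were Lox and Loxl4 (-0.90).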

How the data were processed

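Processed values of 9 mouse RNA sequencing libraries were used, 3 per group (HSCs, CCl4-fib, NASH-fib), grouped by their labels. The authors amplified RNA with the SMARTer kit and aligned single-end reads to mm10 with STAR (version not given in the sources used here). By the file header, HOMER counted both strands over the exons of RefSeq genes, kept no more than 3 reads at a position, condensed transcripts to genes and normalized 10 libraries for DESeq2, of which 9 are columns. The deposited values are a signal per gene made by the authors, and 100% of them were whole multiples of a library's 1-read value (tolerance 0.006 in value). Of the per-sample columns, 0 were unused. No library was a copy of another.

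limma 3.58.1 (R 4.3.3, trended prior, 1 fit over 9 libraries) tested log2(value + 1) of the 13651 genes kept by edgeR 4.0.16's filterByExpr (minimum count 10 on recovered reads), with Benjamini-Hochberg adjustment. A gene was called at an adjusted p under 0.05 when its log2 fold change also reached 1 in either direction. The alternatives were pseudocounts of 0.5 and 8, no filter, an average value of at least 50, TMM and upper-quartile scaling, edgeR, DESeq2 1.42.0, the groups compared only, blocks for replicate number or label prefix and each library left out. A GC correction (loess, span 0.4) and a fit without HSC replicate 2 and NASH-fib replicate 1 were added after seeing the data. The script was tested on simulated data. Exonic lengths, GC content and overlaps came from GENCODE on mm10, promoters from RefSeq, which held 5 of the 10.

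The members and lists were chosen with earlier results of these data known. Named were all 10 members, up to 5 called genes per direction and comparison of the 41 others (further ones of interest were named after their values were seen), the main substrates and the 3 genes most alike Lox, Plod2, P4ha3 and Serpinh1.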

Additional observations from a re-analysis of the deposited data

Results flagged for a closer look

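For 2 of the 10 genes, the change against HSCs differed between the fibrosis models by a direct test of NASH-fib against CCl4-fib. Loxl1 had a log2 fold change of 4.41 in CCl4-fib and 1.54 in NASH-fib, a difference of -2.87 (adjusted p = 0.00567 from limma), with all 3 NASH-fib libraries below all 3 CCl4-fib libraries. Serpinh1 had one of 2.10 in CCl4-fib and 0.45 in NASH-fib, a difference of -1.65 (adjusted p = 0.0269 from limma), again with no overlap of the libraries. With a GC correction neither was called, at -1.62 (adjusted p = 0.0587 from limma) and -0.66 (adjusted p = 0.303 from limma). Lone libraries that stand apart within a group were not looked for by a test, since groups of 3 are too small for one.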

How the results depend on the processing

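No called change of the 10 genes turned its sign under any alternative tried, and 214 of 260 repeats of the 12 calls kept the call. Called genes among the 10 numbered 4 in NASH-fib against HSCs, 6 in CCl4-fib against HSCs and 2 in NASH-fib against CCl4-fib. Leaving out 1 library gave 1 to 4, 4 to 6 and 1 to 2, with 1 in the first without HSC replicate 1, HSC replicate 3 or NASH-fib replicate 2, and 2 when the first replicate of either model was left out, and with 1 in the last when CCl4-fib replicate 1 or 2, or NASH-fib replicate 1 or 3, was. For the 41 other genes (9, 20 and 14 called) it gave 6 to 10, 13 to 25 and 4 to 14, the 13 without CCl4-fib replicate 2. The label prefix as a block gave 1, 3 and 1 of the 10 genes and 3, 13 and 7 of the others, the only HSC library of its prefix then carrying no information. The fit on the groups compared only gave 2 of the 10 in NASH-fib against HSCs. Between the models, the GC correction gave 0 of the 10 (limma, 3 at an unadjusted p under 0.05) and 9 of the others, the fit without the 2 libraries low in GC-rich genes 4 of the 10, and TMM scaling and edgeR 8 and 7 of the others.

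Replicate numbers did not pair the samples, since same-numbered libraries had correlations of deviations from -0.47 to 0.51 and only 3 of 9 libraries matched their own number best. With the replicate number as a block, 2, 5 and 2 of the 10 genes and 8, 16 and 7 of the others were called.

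Signs turned only for differences that were not called. For Plod1 in CCl4-fib against HSCs the value was -0.007 with TMM scaling, -0.17 with edgeR, -0.15 with DESeq2, -0.18 with the prefix block, -0.77 with the GC correction and -0.34 without the 2 libraries, and -0.34 to 0.55 leaving out 1. P4ha1 in NASH-fib against HSCs was 0.15 with the prefix block and 0.13 without the 2 libraries, and -0.47 to 0.44 leaving out 1. Loxl3 in CCl4-fib against HSCs was -0.16 with the GC correction. Between the models Loxl4 was -0.13 with the prefix block and Plod2 0.007 with edgeR. Leaving out 1 library gave -0.36 to 0.73 for that Loxl4 value, -0.66 to 0.01 for Plod2 and -1.90 to 0.10 for P4ha3, and, in NASH-fib against HSCs, -0.54 to 0.13 for Loxl2 and -0.64 to 0.075 for Loxl3. The causes were not tested. TMM scaling moved the median of all genes from 0.18 to 0.07 in CCl4-fib against HSCs and from -0.11 to 0.07 between the models, where limma called 678 genes higher and 773 lower, edgeR 802 and 563 and DESeq2 1525 and 1116. Depth limits P4ha3, Mia2 and Tll1, which had at most 3 reads in each library of 1 group.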
